A study of Mus musculus with 6 samples.

Results

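The genes described here are 10 Eph receptors and ephrins of the intestinal crypt, taken by symbol from a table of 53700 mouse gene rows. They are the receptors Ephb2, Ephb3, Ephb4, Ephb6, Epha1, Epha2 and Epha4 and the ligands Efna1, Efnb1 and Efnb2. All 10 were matched, and all 10 were among the 19127 genes with enough counts to be tested. The tissue was bulk colon tumour from mice, in 6 RNA sequencing libraries. The 3 APC-WT tumours came from cachectic mice, that is, mice with the wasting syndrome of advanced cancer, which had received doxycycline for 10 days and kept their endogenous Tcf7l2. The 3 APC-KI tumours came from mice that had received doxycycline for 6 weeks, in which the drug represses Tcf7l2 throughout the body, and that had recovered. Both groups received 100 mg/kg doxycycline in food pellets. Genotype, time on doxycycline, Tcf7l2 repression and cachexia state therefore cannot be told apart. The labels do not give the animals' age or sex, what drove the tumours, or which cells carry the repressing allele beyond its systemic action. Nor do they say whether each tumour of a group came from its own mouse, so p values measure the spread between these samples, which may be partly technical.

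Eph receptors are receptor tyrosine kinases, and their ligands, the ephrins, are held on the surface of neighbouring cells. Contact signals in both directions: forward into the cell with the receptor, and reverse into the cell with the ephrin. In the intestine EphB2 and EphB3 are made in the proliferating crypt base under control of Wnt signalling through beta-catenin and TCF factors, while ephrin-B1 and ephrin-B2 are made by the differentiating cells above. Repulsion between the opposing sets keeps cells in their places along the crypt axis.

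In these tumours both ephrin-B ligands of the set, Efnb1 and Efnb2, were higher in APC-KI than in APC-WT, by 1.44-fold and 1.54-fold. The other 8 members, the 7 receptors among them, did not pass, where 20.1% of all genes tested passed in either direction. Ephb2, a textbook target of beta-catenin and TCF, had almost the same level in both groups. Its log2 change was -0.02 ± 0.12 (SE, n = 3 each), although Tcf7l2 itself was 7.39-fold lower. In the 4 libraries that lacked Y-linked counts, a single APC-WT library among them, the log2 change of Ephb2 was -0.23. All values below for these 4 libraries rest on that single APC-WT library. For Ephb3 the log2 change, -0.38 ± 0.12, missed the threshold (edgeR adjusted p = 0.0739).

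Because the repressed factor binds DNA, and because Efnb1 and Efnb2 moved together, the promoters of the genes on which these results turn are shown. Each is the stretch of 250 bases before a start annotated by RefSeq, read 5′ to 3′ on the strand of the gene. Capitals mark either of a pair of motif kinds, each searched on both strands. The first is the TCF core, taken as CTTTGAT and, as variants of it, CTTTGTT or else CTTTGAA or else CTTTGTA. The other is the GC box, the letters GGGCGG, which SP-type factors bind. Adjoining GC boxes can overlap each other.
Efnb1 (GRCm38.p6, chrX:99135811-99136060, plus strand): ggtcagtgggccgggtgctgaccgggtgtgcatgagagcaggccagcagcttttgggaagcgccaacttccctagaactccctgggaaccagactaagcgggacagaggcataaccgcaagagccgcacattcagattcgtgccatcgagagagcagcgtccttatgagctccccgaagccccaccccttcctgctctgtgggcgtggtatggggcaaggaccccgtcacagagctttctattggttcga
Efnb2 (GRCm38.p6, chr8:8661243-8661492, minus strand): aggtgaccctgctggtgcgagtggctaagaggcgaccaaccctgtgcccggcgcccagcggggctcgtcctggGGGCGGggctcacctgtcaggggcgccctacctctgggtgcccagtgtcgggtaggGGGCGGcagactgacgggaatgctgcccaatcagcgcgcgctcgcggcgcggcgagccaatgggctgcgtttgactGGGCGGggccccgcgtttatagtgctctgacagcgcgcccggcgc
Ephb2 (GRCm38.p6, chr4:136836013-136836262, minus strand): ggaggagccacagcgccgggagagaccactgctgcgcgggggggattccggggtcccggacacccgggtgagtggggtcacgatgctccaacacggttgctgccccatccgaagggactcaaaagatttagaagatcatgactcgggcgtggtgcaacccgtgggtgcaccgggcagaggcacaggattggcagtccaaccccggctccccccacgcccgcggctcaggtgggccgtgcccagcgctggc
Ephb3 (GRCm38.p6, chr16:21204545-21204794, plus strand): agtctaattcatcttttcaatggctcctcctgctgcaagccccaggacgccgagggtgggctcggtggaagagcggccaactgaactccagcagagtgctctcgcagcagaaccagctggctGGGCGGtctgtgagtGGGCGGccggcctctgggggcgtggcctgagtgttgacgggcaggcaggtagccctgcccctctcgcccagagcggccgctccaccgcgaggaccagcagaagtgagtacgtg
Epha2 (GRCm38.p6, chr4:141300971-141301220, plus strand): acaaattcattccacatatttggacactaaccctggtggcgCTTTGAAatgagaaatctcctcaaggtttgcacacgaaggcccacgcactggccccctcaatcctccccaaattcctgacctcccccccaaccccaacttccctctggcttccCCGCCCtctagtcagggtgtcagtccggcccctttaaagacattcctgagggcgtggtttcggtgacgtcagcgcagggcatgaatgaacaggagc

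All 10 genes had an entry, with 11 such windows, 2 of them for Efna1. A TCF core was found in 1 of the 11 windows, that of Epha2, and in 14.8% of all 32851 windows of this length. The windows of Ephb2, Ephb3, Efnb1 and Efnb2 held no such core, which says only that these letters are not in these bases. GC boxes were in 9 of the 11 windows, against 32.7% of all windows. Efnb2 had 3 and Ephb3 had 2, while Ephb2 and Efnb1 had none. The GC content was 60.0% for Efnb1, 72.0% for Efnb2, 68.4% for Ephb2 and 65.6% for Ephb3, where the median of all windows was 52.4%.

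The libraries held between 51777342 and 63921108 counts, and the members between 1426 and 12842 counts each in any library. Values are CPM, counts relative to the library total scaled with TMM factors, unless stated otherwise. Tcf7l2 stood at 44.1, 43.8 and 35.6 CPM in APC-WT, against 4.48, 6.90 and 5.34 CPM in APC-KI replicates 1 to 3, the direction that the labels state. All 12 genes of a pan-epithelial list (Epcam, Cdh1 and keratins among them) were detected in every library. Their summed level was 9104 to 10110 CPM in APC-WT, against 11016 to 12856 CPM in APC-KI, without overlap. Cdx2, which marks intestinal epithelium, was at 5.34 CPM in APC-KI replicate 3 and between 17.3 and 56.5 CPM in the other 5 libraries. Counts of Y-linked genes were present in APC-WT replicates 1 and 2 alone, so their presence is partly confounded with group. The file headers give the same run and lane for all 6 libraries.

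**Figure D1:**
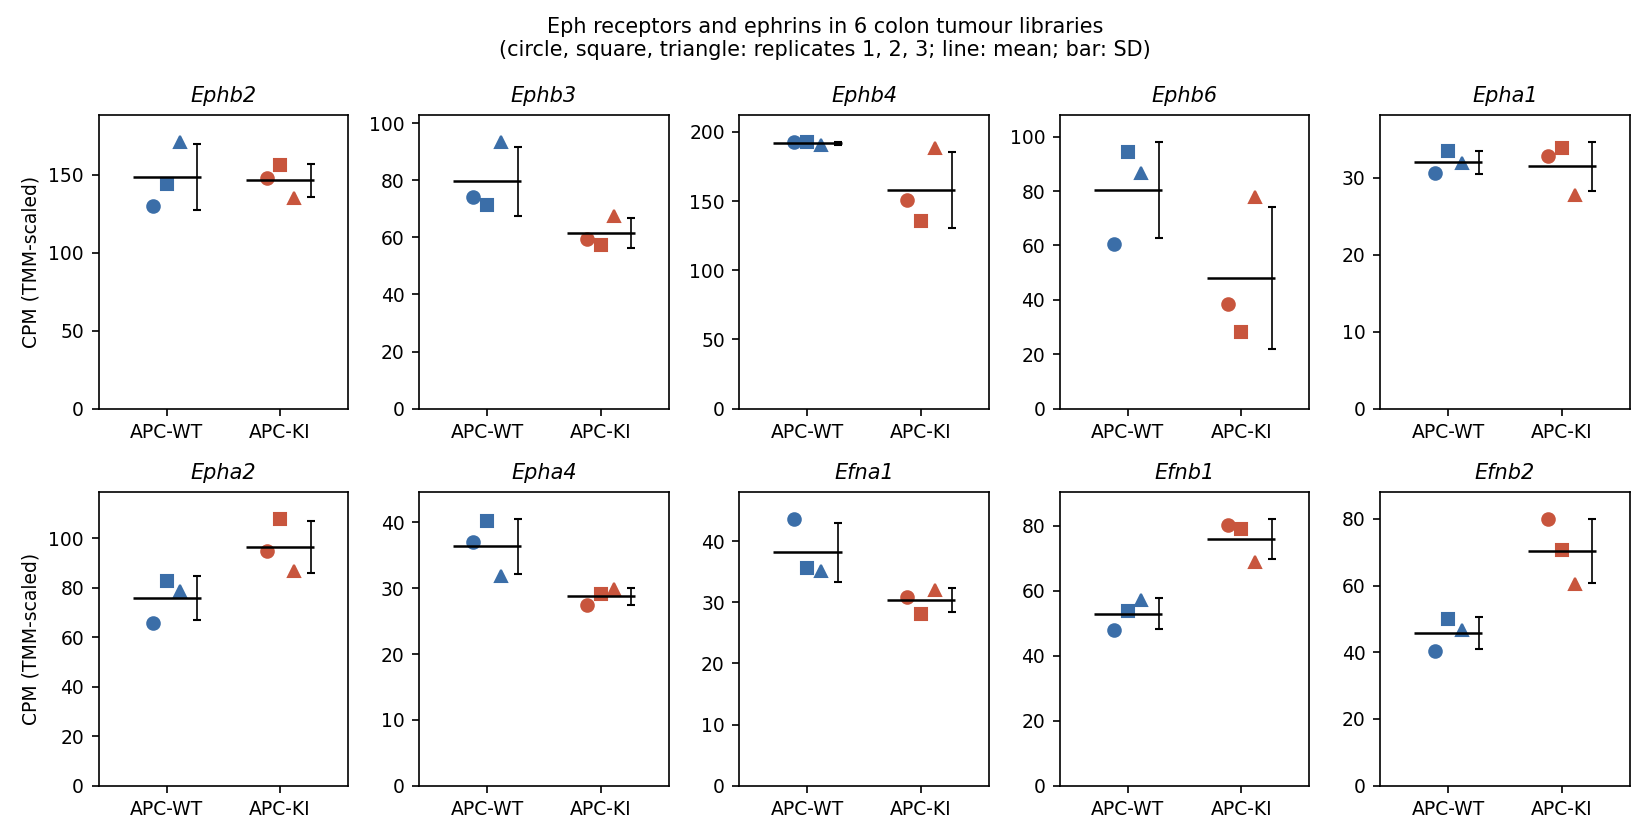
CPM (TMM-scaled, axes from 0) of the 10 members in each library, with APC-WT in blue and APC-KI in red, replicates 1 to 3 as circle, square and triangle, the group mean as a line and the SD as a bar (n = 3 each). Efnb1 and Efnb2 are higher in all 3 APC-KI libraries than in any APC-WT library, Ephb2 and Epha1 overlap, and APC-KI replicate 3 lies near the APC-WT libraries for Ephb4 (189 CPM) and Ephb6 (77.7 CPM).

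Efnb1 encodes ephrin-B1, a transmembrane ligand of the EphB receptors, and lies on chromosome X. Its level was 47.8, 53.7 and 57.2 CPM in APC-WT replicates 1 to 3 and 80.2, 78.9 and 68.8 CPM in APC-KI replicates 1 to 3. Every APC-KI library was above every APC-WT library. APC-WT replicate 3, which lacked Y-linked counts as the APC-KI libraries did, was at 57.2 CPM and so below all 3 of them. This gave a log2 change of 0.52 ± 0.10 (SE; adjusted p = 0.0166 with edgeR).

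Efnb2 encodes ephrin-B2, the second transmembrane ligand of the set, which is also a marker of arterial endothelium. It was at 40.5, 49.9 and 46.8 CPM in APC-WT, against at 79.9, 70.7 and 60.5 CPM in APC-KI. Again the groups did not overlap. Its log2 change was 0.62 ± 0.13 (SE, edgeR adjusted p = 0.0208). These were the 2 of the 10 members that passed, a share close to the 20.1% of all genes tested that passed in either direction; 12.5% of all genes passed as higher and 7.63% as lower. Over all 17 alternative settings both log2 changes stayed above 0. The calls did not hold in all of them: without APC-WT replicate 2, APC-KI replicate 1 or APC-KI replicate 2 in turn, the adjusted p was 0.0645, 0.0639 and 0.0611 for Efnb1 and 0.0545, 0.0665 and 0.0674 for Efnb2. In the 4 libraries that lacked Y-linked counts, where the single APC-WT library is taken to be as variable as the rest, the log2 changes were 0.41 for Efnb1 (adjusted p = 0.184) and 0.59 for Efnb2 (adjusted p = 0.16).

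In bulk tissue, fewer cells of a type and less RNA per cell cannot be told apart, and markers of several cell types moved with the ligands. All 12 differentiated colonocyte genes had positive log2 changes, 6 of them passing as higher, and their summed level was 3194 to 3681 CPM in APC-WT, against 9620 to 11567 CPM in APC-KI. Of 14 endothelial markers 6 were higher and 0 lower, with sums of 274 to 376 CPM in APC-WT, against 420 to 530 CPM in APC-KI. The arterial markers summed to 71.7 to 105 CPM and 52.8 to 80.5 CPM, which overlap, with 2 of 6 higher; the venous ones to 29.4 to 48.1 CPM and 64.4 to 88.1 CPM, with 1 of 4 higher. Among all genes tested, 12.5% passed as higher and 7.63% as lower. None of the markers of these lists was at 0 in any library. Their part in the ligands' change was not tested. Within a library the log2 ratio of Efnb2 to the endothelial gene Pecam1 was 0.15, 0.27 and -0.20 in APC-WT and 0.47, -0.04 and -0.03 in APC-KI, so that the groups overlapped. Against Cdh5, another endothelial gene, it was 0.13, 0.01 and -0.46 in APC-WT and 0.82, 0.49 and 0.45 in APC-KI, without overlap. Relative to Epcam, the epithelial adhesion molecule, the log2 ratio was higher in APC-KI by 0.22 for Efnb1 and 0.31 for Efnb2, and neither overlapped between the groups. For the receptors Ephb2, Ephb3 and Ephb4 the ratio to Epcam went the other way. It differed by -0.32, -0.67 and -0.60, also without overlap. These ratios were chosen after the values were seen.

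Among the receptors Ephb2, the EphB receptor most used as a marker of the crypt base, was at 130.0, 144 and 171 CPM in APC-WT, against 148, 156 and 135 CPM in APC-KI. The APC-KI libraries all lay inside the range of the APC-WT libraries. Its 95% interval for the log2 change ran from -0.30 to 0.26 (adjusted p = 0.914), which leaves room for changes of that size. Ephb3, the partner of Ephb2 in crypt cell positioning and a receptor also made by Paneth cells, was at 74.2, 71.3 and 93.6 CPM in APC-WT, against 59.5, 57.4 and 67.4 CPM in APC-KI. Its groups did not overlap, with an interval of -0.67 to -0.08, but it did not pass after adjustment over all genes. Its log2 change was -0.24 without APC-WT replicate 3 (adjusted p = 0.124) and -0.61 in the libraries that lacked Y-linked counts (adjusted p = 0.0876). Of 8 markers of Paneth-like cells 5 passed as lower and 0 as higher, with log2 changes from -2.84 to 0.74. Among all genes tested, 7.63% passed as lower and 12.5% as higher. The markers of Paneth-like cells summed to 3981 to 4932 CPM in APC-WT, against 1622 to 2100 CPM in APC-KI. Their part in the value of Ephb3 was not tested.

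For comparison, 12 of 14 other Wnt targets of the crypt base fell and 0 rose, where 7.63% of all genes tested passed as lower and 12.5% as higher. The median log2 change of these targets was -1.16, where the median over all genes tested was -0.02. Lgr5, the R-spondin receptor of crypt stem cells, had a log2 change of -1.02 ± 0.09 and Axin2, a feedback inhibitor of the pathway, one of -1.36 ± 0.27 (SE). The log2 ratio of Ephb2 to Lgr5 counts within a library was 0.02, 0.44 and 0.60 in APC-WT and 1.29, 1.53 and 1.23 in APC-KI. Its mean was thus higher in APC-KI by 1.00, and that of Ephb2 to Axin2 by 1.35. For Ephb3 the same differences were 0.64 against Lgr5 and 1.00 against Axin2. None of these 4 ratios overlapped between groups, and a ratio within a library does not depend on scaling. In the 4 libraries that lacked Y-linked counts, the differences were 0.77 for Ephb2 against Axin2, 0.75 for Ephb2 against Lgr5, 0.39 for Ephb3 against Axin2 and 0.37 for Ephb3 against Lgr5. Lgr5 and Axin2 were picked as comparators after their values were seen, so these ratios carry no test.

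**Figure D2:**
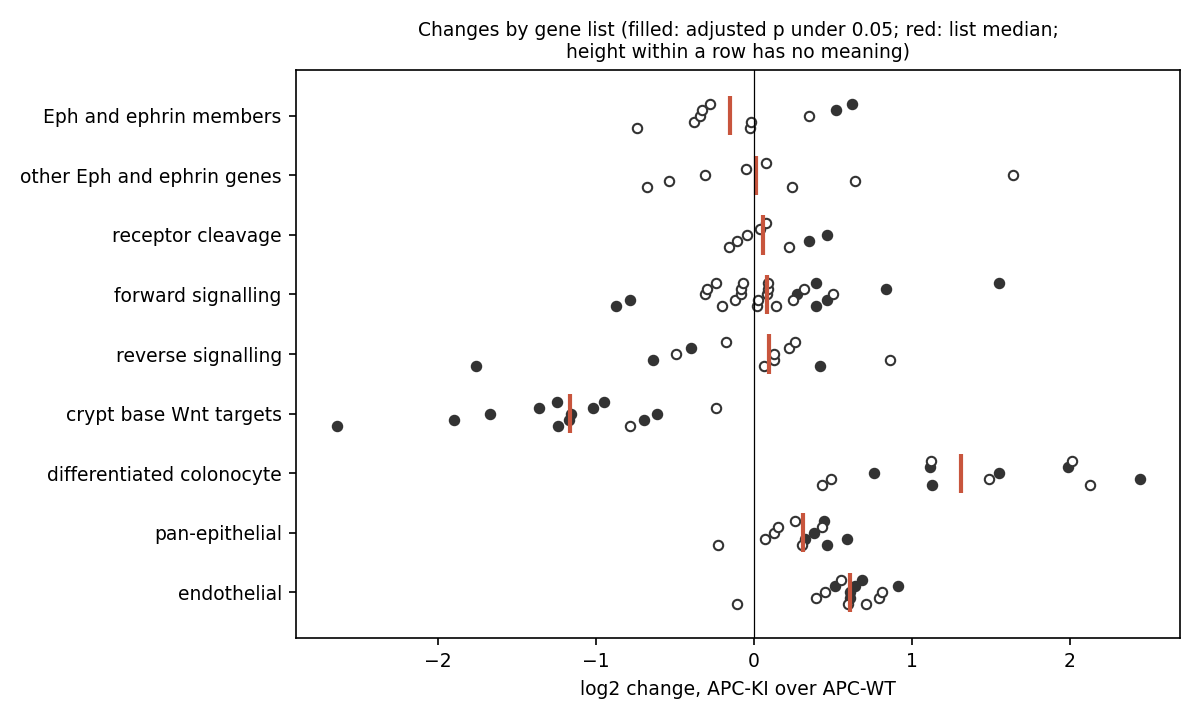
Log2 change, APC-KI over APC-WT, of each tested gene in 9 lists, with filled points for adjusted p under 0.05 and a red line at the list median. The members lie between -0.74 and 0.62 with 2 filled points, whereas 12 of the 14 crypt base Wnt targets are filled and all 14 are below 0.

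Ephb4, the receptor for ephrin-B2 that marks venous endothelium and is also made by intestinal epithelium, was at 193, 193 and 190.4 CPM in APC-WT, the narrowest spread of any member in a group (CV 0.643%). In APC-KI it was at 151, 135 and 189 CPM. Replicate 3 was next to the APC-WT values and the other 2 were well below. The log2 change was -0.28 ± 0.12 (SE, adjusted p = 0.15); without APC-KI replicate 3 it was -0.43 and passed (adjusted p = 0.017). Some reads may belong to Zan, which has exons on the opposite strand of Ephb4 and 555 to 2132 counts of its own, since no source used here gives the strand setting of the counting. The log2 ratio of Ephb4 to Cdh5 averaged 1.97 ± 0.41 in APC-WT and 1.75 ± 0.33 in APC-KI (SD, n = 3 each), with overlapping groups.

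Ephb6 encodes an EphB receptor whose kinase domain is catalytically inactive. It was the most variable member, at 60.4, 94.2 and 86.7 CPM in APC-WT, against 38.4, 28.2 and 77.7 CPM in APC-KI. Replicates 1 and 2 of APC-KI were below every APC-WT library, and replicate 3 lay within the APC-WT range. With all libraries the log2 change was -0.74 ± 0.38 (SE, adjusted p = 0.204), and without APC-KI replicate 3 it was -1.28 (adjusted p = 0.0173). Without APC-KI replicate 2 instead, Ephb4 was at -0.17 (adjusted p = 0.364) and Ephb6 at -0.47 (adjusted p = 0.404), so single libraries moved both genes in either direction. Without APC-KI replicate 3, 2 of the 10 members passed as lower and 2 as higher, where 8.12% and 11.9% of all genes did, 20% in all.

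APC-KI replicate 3 was the APC-KI library nearest the APC-WT mean for 8 of the 10 members, all but Ephb2 and Epha1. Among all genes tested it was the nearest for 48.1%. The same library held the highest summed level of crypt base Wnt targets in its group, 1632 CPM against 1306 and 1170 CPM in APC-KI replicates 1 and 2, and 2847 to 3752 CPM in APC-WT. Its Tcf7l2 level, 5.34 CPM, was between those of the other two. What sets this library apart was not tested.

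Among the A-class members, Epha2, an epithelial receptor whose main ligand is ephrin-A1, was at 65.7, 82.7 and 78.6 CPM in APC-WT, against 94.8, 108 and 87.0 CPM in APC-KI. The groups did not overlap, and the log2 change was 0.35 ± 0.12 (SE, adjusted p = 0.0769). Efna1, the membrane-anchored ligand of Epha2, was at 43.7, 35.6 and 35.2 CPM in APC-WT, against 30.9, 28.1 and 32.0 CPM in APC-KI, with a log2 change of -0.33 ± 0.11 (adjusted p = 0.0809), or -0.21 in the libraries that lacked Y-linked counts (adjusted p = 0.411). This ligand and its receptor thus had estimates of opposite sign, neither of which passed. Epha4, which binds ephrins of both classes, was at 37.0, 40.2 and 31.9 CPM in APC-WT, against 27.4, 29.1 and 29.9 CPM in APC-KI, again without overlap. Its log2 change was -0.34 ± 0.11 (adjusted p = 0.0657), and it passed without APC-WT replicate 3 (adjusted p = 0.032). In the libraries that lacked Y-linked counts it was -0.15 (adjusted p = 0.534). Epha1, the founding member of the family, ranged from 30.6 to 33.5 CPM in APC-WT, against from 27.8 to 33.9 CPM in APC-KI (log2 change -0.02 ± 0.10, adjusted p = 0.877). Exons of Zyx, a more abundant gene with 5230 to 6447 counts, lie on its opposite strand, so its level is uncertain.

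The groups did not overlap for 7 of the 10 members, against 44.5% of all genes tested. Efnb1, Efnb2 and Epha2 were higher and Ephb3, Ephb4, Epha4 and Efna1 lower in APC-KI, where 23% of all genes tested did not overlap with APC-KI higher and 21.5% with APC-KI lower. At an unadjusted edgeR p under 0.05 there were 3 members higher and 3 lower, and 37.8% of all genes reached it in either direction. With TMM scaling and all 6 libraries, no member passed as lower with edgeR's quasi-likelihood test or limma-voom. In detail, limma-voom called 2 members higher, and 13% of all genes higher and 7.6% lower, 20.6% in all. DESeq2, which called 17.6% of all genes higher and 12.5% lower, 30.1% in all, called Ephb3 and Epha4 lower and Efnb1, Efnb2 and Epha2 higher.

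**Figure D3:**
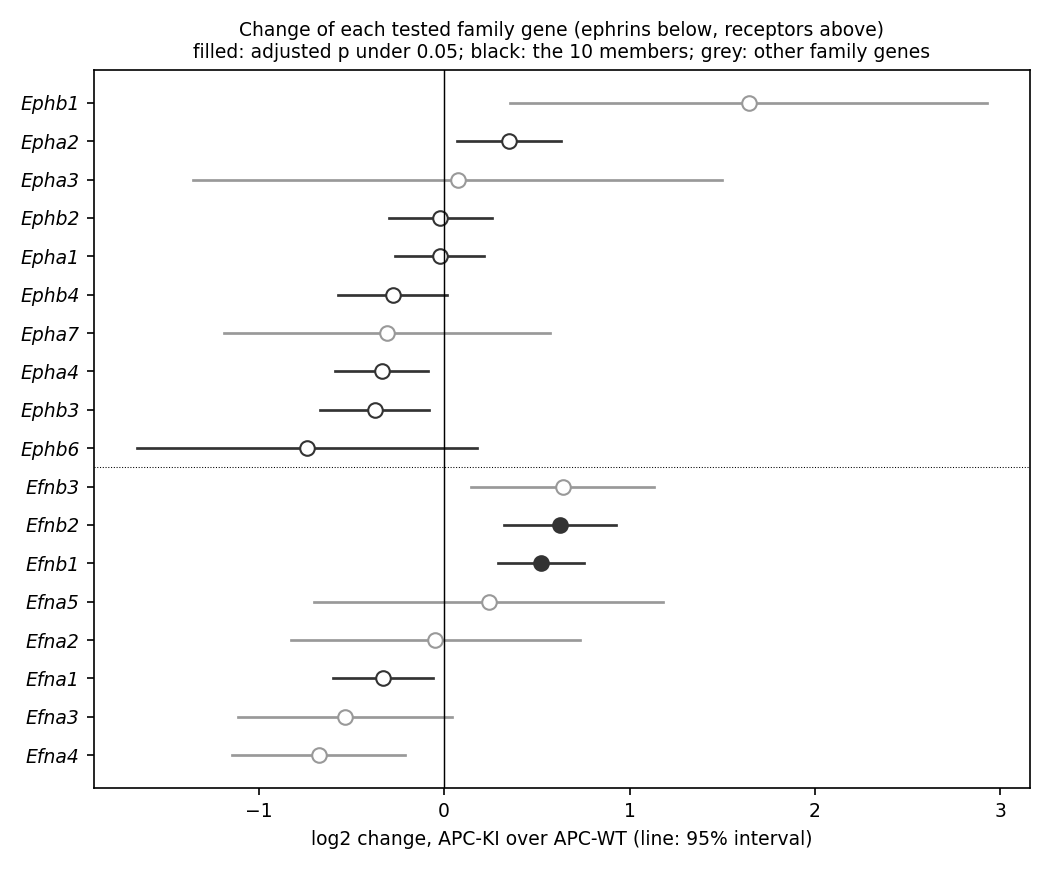
Log2 change, APC-KI over APC-WT, with its 95% interval for the 18 tested genes of the family, ephrins below the dotted line and receptors above, members in black and other family genes in grey; filled points passed at an adjusted p under 0.05. Efnb1 and Efnb2 are the filled points, and the intervals of Ephb2 and Epha1 are centred near 0.

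Of the 12 other Eph and ephrin genes, 8 had enough counts to be tested and 0 passed with edgeR, where 20.1% of all genes tested passed. At an unadjusted edgeR p under 0.05, 2 were higher and 1 lower, and 37.8% of all genes reached it in either direction. Efnb3, the third transmembrane ligand, was at 1.33, 1.58 and 1.57 CPM in APC-WT, against 2.04, 2.41 and 2.54 CPM in APC-KI. All 3 transmembrane ephrins thus had higher levels in every APC-KI library than in any APC-WT library, as did 23% of all genes tested. Efnb3 did not pass (log2 change 0.64 ± 0.21, edgeR adjusted p = 0.0716). Efna4, an anchored ligand like Efna1, was at 23.9, 27.4 and 25.8 CPM in APC-WT, against 13.5, 13.5 and 21.3 CPM in APC-KI (log2 change -0.68 ± 0.20, adjusted p = 0.053), and without APC-KI replicate 3 it passed (adjusted p = 0.00652). Ephb1 was rare, at 0.12 to 0.58 CPM in APC-WT, against 0.80 to 1.12 CPM in APC-KI (log2 change 1.64 ± 0.54, adjusted p = 0.0739). That change was 2.46 without APC-WT replicate 3 (adjusted p = 0.0143) and 0.72 in the libraries that lacked Y-linked counts (adjusted p = 0.358). Efnb3, Efna4 and Ephb1 were called by DESeq2, and Efna4 and Ephb1 by limma-voom; they were named after their values were seen. Epha5, Epha6, Epha8 and Epha10 had at most 12 counts in any library and were not tested.

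Since receptors and ligands act as pairs, their balance was taken within each library, where scaling plays no part. The log2 ratio of Ephb2 to Efnb1 counts was 1.44, 1.42 and 1.58 in APC-WT and 0.89, 0.98 and 0.97 in APC-KI, a mean difference of -0.54. For Ephb3 to Efnb1 it was 0.64, 0.41 and 0.71 in APC-WT and -0.43, -0.46 and -0.03 in APC-KI, a difference of -0.89. Ephb4 to Efnb2 went from 2.25, 1.95 and 2.03 in APC-WT to 0.91, 0.94 and 1.64 in APC-KI. The ratio was lower in every APC-KI library than in any APC-WT library for these pairs and for Ephb2 or Ephb3 to Efnb2, which differed by -0.63 and -0.99. Since the groups did not overlap, leaving out any 1 library could not change the sign of these 5 differences. The one nearest 0 was then -0.49, for Ephb2 to Efnb1. With 3 libraries against 3 an exact permutation test cannot reach a two-sided p below 0.1, so none is given, and the same libraries gave the single-gene results above.

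**Figure D4:**
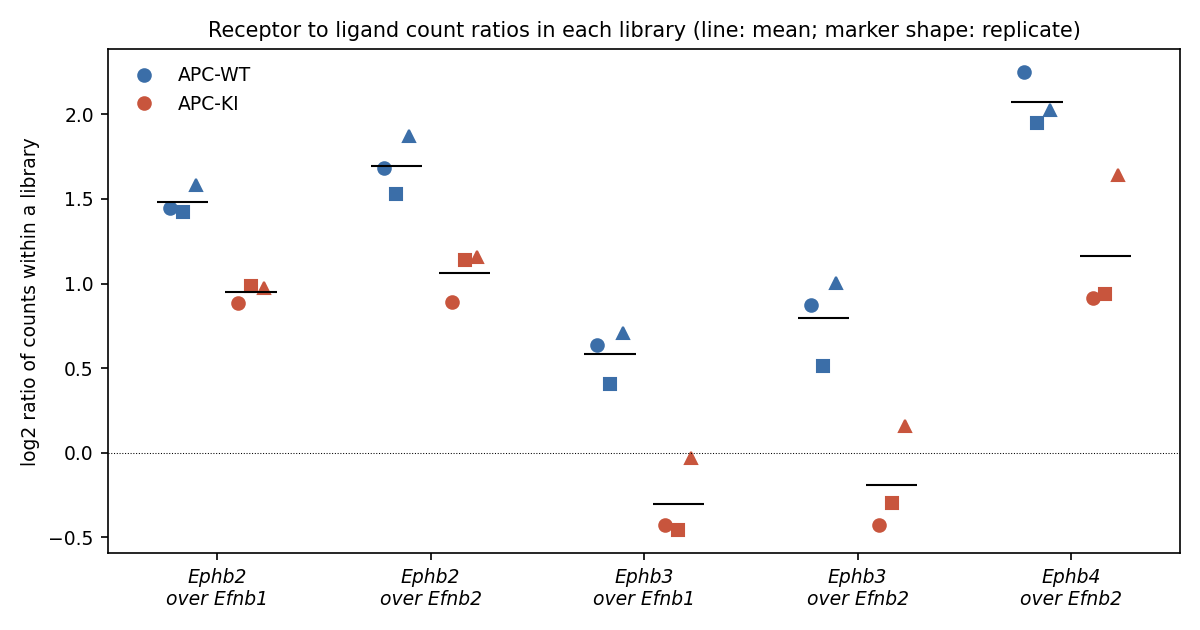
Log2 ratio of receptor to ligand counts in each library for 5 pairs, APC-WT in blue and APC-KI in red, replicates 1 to 3 as circle, square and triangle, with the group mean as a line. In each pair the 3 APC-KI points lie below the 3 APC-WT points. The APC-KI means of Ephb3 over Efnb1 (-0.31) and Ephb3 over Efnb2 (-0.19) are below 0. Counts here are not divided by gene length, so 0 does not mark equal levels of receptor and ligand.

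Levels of different genes can be set side by side per length alone. In CPM per kilobase of merged exons, APC-WT tumours had most Ephb4 (41.3 ± 0.27, SD, n = 3), followed by Ephb6 (21.3 ± 4.71), Efna1 (20.9 ± 2.63), Epha2 (16.2 ± 1.90), Efnb1 (15.3 ± 1.38), Ephb3 (10.7 to 14.1), Ephb2 (11.8 ± 1.67), Epha1 (8.15 ± 0.38), Efnb2 (6.67 ± 0.70) and Epha4 (4.52 ± 0.52). Ephb4 was above and Epha4 below all others in each APC-WT library, and the ranges of Efna1 and Epha2, of Ephb2 and Epha1 and of Epha1 and Efnb2 did not overlap either. The other neighbours in this order, Ephb6 and Efna1, Epha2 and Efnb1, Efnb1 and Ephb3, and Ephb3 and Ephb2, had overlapping ranges. In APC-KI Efnb1 was second by mean (22.0 ± 1.80) after Ephb4 (34.1 ± 5.92), where in APC-WT it came after Epha2. That place did not hold in each library. Epha2 was above Efnb1 in APC-KI replicate 2 (23.1 against 22.9), and Ephb6 in APC-KI replicate 3 (20.6 against 19.9). The order depends on the length used. Per kilobase of coding length, which leaves out the long untranslated ends of Ephb2 and Efnb2, APC-WT tumours had 64.2 for Ephb4, 62.1 for Efna1, 51.1 for Efnb1, 50.1 for Ephb2 and 45.4 for Efnb2, and APC-KI tumours had most Efnb1 (73.4) and Efnb2 (69.8), ahead of Ephb4 (53.0). Efnb2 and Ephb4 overlapped there, with ranges of 60.0 to 79.3 and 45.3 to 63.2, and in APC-KI replicate 3 Ephb4 was the higher. Summed per merged exon length, all 5 EphB receptors stood to all 3 transmembrane ephrins as 3.92, 3.80 and 3.84 to 1 in APC-WT and as 1.79, 1.70 and 2.78 to 1 in APC-KI. With coding length these ratios were 1.75, 1.63 and 1.76 in APC-WT and 0.84, 0.85 and 1.22 in APC-KI. The 9 EphA receptors stood to the 5 anchored ephrins as 0.66, 0.82 and 0.79 to 1 in APC-WT and as 1.204, 1.402 and 0.924 to 1 in APC-KI, the opposite direction. With coding length these were 0.40, 0.50 and 0.47 in APC-WT and 0.69, 0.79 and 0.55 in APC-KI. None of the 4 ratios overlapped between the groups, and the sums were formed after the values were seen.

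The scaling of libraries moved all members together. With library totals alone the median log2 change of all genes was -0.13, and with libraries scaled to the summed pan-epithelial counts it was -0.34. In the epithelial scaling Efnb1 was at 0.20 (adjusted p = 0.106) and Efnb2 at 0.29 (adjusted p = 0.0601), and 6 members passed as lower, namely Ephb2, Ephb3, Ephb4, Epha1, Epha4 and Efna1, where 31.8% of all genes did; 0 members and 7.99% of all genes passed as higher, 39.8% in all. Ephb2 had a log2 change of -0.34 there (adjusted p = 0.0328), the same as the median of all genes. With library totals 3 members, Ephb3, Epha4 and Efna1, passed as lower, against 14.9% of all genes. Both Efnb1 (adjusted p = 0.0229) and Efnb2 (adjusted p = 0.0256) passed as higher there, against 10.3% of all genes, 25.2% in all. With the replicate number as a block 0 members passed, where 6.25% of all genes passed as higher and 2.43% as lower, 8.68% in all.

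**Figure D5:**
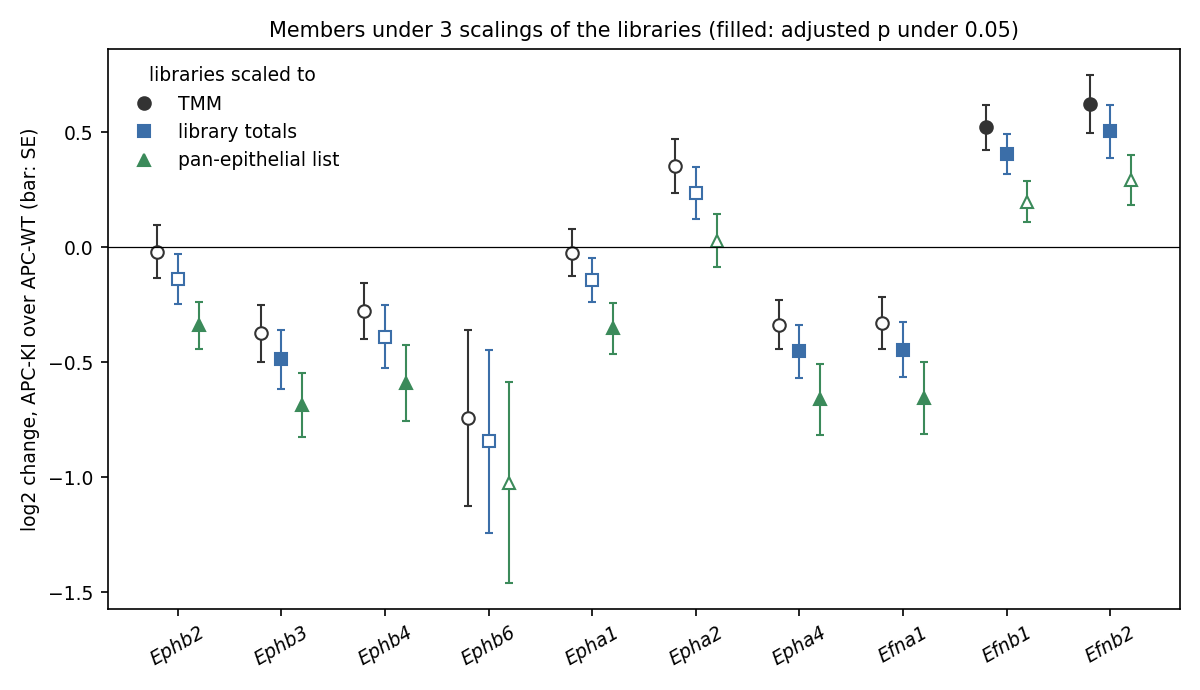
Log2 change of the 10 members with SE under 3 scalings of the libraries, TMM factors (black circles), library totals (blue squares) and the summed pan-epithelial list (green triangles), filled where adjusted p was under 0.05. Library totals and the epithelial list give lower values than TMM for each member, and Efnb1 and Efnb2 stay above 0 in all 3 but are filled in the first 2 alone.

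The enzymes that cut Eph receptors and ephrins showed small changes. Of 8 tested, 2 rose and 0 fell, where 12.5% of all genes tested passed as higher and 7.63% as lower. The median log2 change of the list was 0.06. Aph1a, a subunit of gamma-secretase, rose by 0.35 ± 0.08 in log2 terms (SE, edgeR adjusted p = 0.03). Adam10, the sheddase of ephrins and of E-cadherin at Eph contacts, named after its value was seen, had a log2 change of -0.16 ± 0.07 (adjusted p = 0.17).

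Forward signalling from the receptors runs through SRC-family kinases, adaptors and exchange factors for small GTPases. Of 27 such genes 25 were tested, 6 rose and 2 fell, where 12.5% of all genes tested passed as higher and 7.63% as lower. The median log2 change of the list was 0.08. Tiam1, an exchange factor for RAC1, fell by 0.87 in log2 terms, from 72.2 to 85.3 CPM in APC-WT to 40.1 to 46.4 CPM in APC-KI (adjusted p = 0.00519), and Arhgef19, a further exchange factor, fell by 0.78 (adjusted p = 0.024). Kalrn, also an exchange factor, rose by 1.55 ± 0.22 (adjusted p = 0.00833), the kinase gene Lyn by 0.84 ± 0.09 (adjusted p = 0.00529), Rac1 by 0.46 ± 0.09 (adjusted p = 0.0193) and Arhgef16 by 0.39 ± 0.07 (adjusted p = 0.015). Lyn is abundant in B and myeloid cells. Immune markers summed to 391 to 496 CPM in APC-WT, against 1055 to 2235 CPM in APC-KI, fibroblast markers to 1006 to 2651 and 3116 to 4248 CPM, and smooth muscle markers to 233 to 532 and 1074 to 1716 CPM. Of these lists 3 of 12, 4 of 10 and 10 of 10 were higher and 1, 0 and 0 lower, none of their genes was at 0 in any library, and their part in the values of the signalling genes was not tested.

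Reverse signalling through the ephrin-B tail uses PDZ-domain proteins and partners at cell junctions. Of 12 genes tested 1 rose and 3 fell, where 12.5% of all genes tested passed as higher and 7.63% as lower. The median log2 change of the list was 0.09. Grip2, a PDZ scaffold that binds the ephrin-B tail, was at 10.5, 15.2 and 11.6 CPM in APC-WT, against 3.07, 3.46 and 4.48 CPM in APC-KI. It fell by 1.76 (log2, SE 0.22, adjusted p = 0.0066). Its groups were far apart, in the opposite direction to the ephrin-B ligands. Cldn4, a claudin that associates with ephrin-B1, fell by 0.64 (SE 0.09, adjusted p = 0.00881) and Pick1, a PDZ protein, by 0.40 (SE 0.10, adjusted p = 0.0371). Pard6b, a polarity protein whose family binds ephrin-B1, rose by 0.42 ± 0.11 (adjusted p = 0.0396). All 3 signalling lists had medians near that of all genes.

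The genes closest to single members over the 6 libraries were ranked among 12725 protein-coding genes by the root mean square difference of centred log2 CPM. For Ephb2 they were Ppih, Snrpg, Lsm3, Cfl1 and Tacc3, with differences of 0.019 to 0.035. For Ephb3 they were Pimreg, Phlda1, Lrp12, Pcdhgc3 and Zswim7, at 0.043 to 0.068. For Efnb1 they were Prag1, Rp2, Mon1b, Clint1 and Calm3, at 0.022 to 0.038. These are descriptions over 6 values that share libraries and groups.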

How the data were processed

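RNA of bulk colon tumours was sequenced in 6 libraries, 3 APC-WT and 3 APC-KI. Per the labels' protocols, tumours were pinched from the muscle layer and libraries were made with a stranded mRNA kit. The authors' tools, per the submitters' processing notes, included STAR, cutadapt 2.5, DESeq2 1.37.6 and Trim Galore 0.6.4, and the builds named are GRCm38 and mm10. No source used here gives the counting tool, the annotation release or the strand setting. The deposited values are raw counts per Ensembl gene. GENCODE M21 named 52093 of 53700 rows and supplied lengths; 35 identifier versions equalled those of M21, so lengths are approximate and no coordinates are given for the counts.

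Genes were kept with filterByExpr, scaled with TMM and tested with edgeR 4.0.16 (robust glmQLFit and glmQLFTest, R 4.3.3) with group as the sole term; Benjamini-Hochberg adjustment covered 19127 genes, threshold 0.05. Intervals of log2 changes are 95%. The steps were tested on simulated data with known changes. They called 46 of 99 changes of 2-fold and 82 of 100 changes of 4-fold with the right sign, and 13 of 141 calls were false. A gene that did not pass may therefore still have changed. Libraries of a group differed far beyond sampling noise (mean chi-square per gene 39.5 to 114). Members, gene lists and alternatives were chosen with earlier results of these data known. Named were all members, every other family gene past the threshold, up to 6 genes with the smallest p past the threshold from each pathway list and up to 3 from other lists, and the 5 nearest patterns for Ephb2, Ephb3 and Efnb1 with average log2 CPM of at least 1. Other lists are given mainly as counts and sums. Promoters are RefSeq's for GRCm38.p6, without the 50 bases after the start. Alternatives were RLE, upper-quartile, library-total and epithelial scaling, DESeq2 1.42.0, limma-voom 3.58.1, other filters, the replicate number as a block, each library left out, and the Y-linked counts. 1 listed gene, Anks1a, had no row under that symbol. The values of 1 further receptor cleavage gene that passed are not reported here.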

Additional observations from a re-analysis of the deposited data

How the results depend on the processing

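Over 17 alternatives the log2 changes of Efnb1 ranged from 0.20 to 0.58 and of Efnb2 from 0.29 to 0.71, and each passed in 10. For Ephb3 (-0.69 to -0.24), Ephb4, Ephb6, Epha2, Epha4 and Efna1 the sign held in all 17. Ephb2 reversed to 0.094 without APC-WT replicate 3 and 0.03 without APC-KI replicate 3, and Epha1 to 0.006 without APC-WT replicate 2 and 0.048 without APC-KI replicate 3, none of which passed; with a library left out Ephb2 ranged from -0.11 to 0.094 and Epha1 from -0.077 to 0.048. The difference in Efnb2 to Pecam1, 0.06, turned to -0.08 without APC-WT replicate 3 and -0.11 without APC-KI replicate 1, reached 0.16 at most with a library left out and was 0.33 in the libraries lacking Y-linked counts; that in Ephb4 to Cdh5, -0.22, turned to 0.18 in the libraries lacking Y-linked counts. Members called higher numbered 2 and became 0 with epithelial scaling, with the replicate block, in the libraries lacking Y-linked counts and with those counts as a covariate, and 0 to 2 with a library left out; members called lower went from 0 to 3 with library totals, 6 with epithelial scaling and 2 with DESeq2, and 0 to 2 with a library left out. Other family genes called higher went from 0 to 2 with DESeq2, 1 with limma-voom and 1 with no filter, and 0 to 1 with a library left out; those called lower from 0 to 1 with upper-quartile factors, library totals, DESeq2, limma-voom or no filter and 2 with epithelial scaling, and 0 to 1 with a library left out.

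Cleavage genes called higher went from 2 to 1 with library totals and 0 with epithelial scaling, the replicate block, the libraries lacking Y-linked counts or their covariate, and 0 to 2 with a library left out; called lower, from 0 to 1 with library totals or epithelial scaling. Forward signalling genes called higher went from 6 to 2 with epithelial scaling, 3 with the replicate block, 1 in the libraries lacking Y-linked counts and 2 with the covariate, and 2 to 6 with a library left out; called lower, from 2 to 4 with library totals, 11 with epithelial scaling, 0 in the libraries lacking Y-linked counts and 1 with the covariate, and 1 to 3 with a library left out. Reverse signalling genes called higher went from 1 to 0 with library totals, epithelial scaling, the replicate block, the libraries lacking Y-linked counts or the covariate, and 0 to 1 with a library left out; called lower, from 3 to 1 in the libraries lacking Y-linked counts and with the covariate, and 2 to 3 with a library left out. Epithelial scaling and library totals shift all genes together, and in these libraries the shift was downward. TMM factors were 1.03 to 1.05 in APC-WT and 0.94 to 0.99 in APC-KI. The pan-epithelial list held 0.95 to 1.04% of counts in APC-WT and 1.09 to 1.21% in APC-KI. Left-out libraries leave fewer samples, and other causes were not tested.

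Same-numbered libraries had correlations of their deviations of 0.03, -0.07 and -0.18, and differently numbered ones of -0.14 to 0.20. With 3 libraries per group these values cannot settle whether the replicate number is a pairing. With the replicate number as a block Efnb1 had an edgeR adjusted p = 0.0618 and Efnb2 0.0655. Over all genes the calls were 2388 higher and 1459 lower, 1978 and 2844 with library totals, 1529 and 6078 with epithelial scaling, 1195 and 465 with the replicate block, 178 and 152 in the libraries lacking Y-linked counts and 3369 and 2388 with DESeq2. With the Y-linked counts as a covariate they were 220 and 195. Without APC-WT replicate 2 they were 788 and 371. The counts of listed genes called in each setting are to be read beside these totals.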
